A study of Mus musculus with 6 samples.

Results

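The mitochondrial solute carriers of the SLC25 family were read in splenic mouse CD8+ T cells given acetate and in untreated cells of the same kind. The members were all protein-coding rows of the deposited gene table whose symbol is Slc25a followed by a number, which gave 47 genes of 41095 rows, or of 20460 protein-coding rows. With a filter at a mean of 1 FPKM over the 6 libraries, 35 of the 47 were tested and 12 were not. FPKM divide the reads of a gene by its length and by the size of the library, so levels can be compared between genes, while a comparison between libraries also depends on their scaling. The acetate group (3 libraries) consisted of wild-type (WT) CD8+ T cells that received acetate during 48 h, at 5 mmol/L if the unusually written unit of the labels is taken that way. The control group (3 libraries) consisted of WT CD8+ T cells labelled as untreated. Cells of both groups came from spleen by positive magnetic selection. They were cultured for 72 h with IL-2 (30 U/mL), on plates that carried antibodies to CD3 (5 µg/mL) and CD28 (2 µg/mL) to trigger the antigen receptor and its costimulatory partner. When in this culture the acetate was added is not given. Because the submitters' design note describes a state before and one after acetate, where the labels name treated and untreated cells, acetate and time in culture cannot be told apart. The labels give no separate animals or cultures for the 3 libraries of a group, so p-values measure the spread between these libraries, which may be technical.

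SLC25 carriers are small nuclear-encoded proteins built of a repeated fold of membrane helices, and nearly all of them sit in the inner mitochondrial membrane. Each exchanges or imports a set of metabolites, such as ATP for ADP, citrate for malate, aspartate for glutamate, or a vitamin cofactor, between the cytosol and the matrix. Stimulated T cells lean on this traffic, because citrate leaving mitochondria feeds cytosolic lipid synthesis and protein acetylation, and because the exchange of reducing equivalents keeps glycolysis running.

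FPKM multiplied by gene length came out as whole reads, which gave a depth of 31098394 to 39140711 reads per library over all genes, and Slc25a5 held 14522 to 21169 of them. The 7 markers listed for CD8 T cells were all detected. Of these, Cd8a and Cd8b1 mark the CD8 lineage and the others mark T cells more widely. Their summed level was 1540 to 1630 FPKM in acetate libraries and 1470 to 1530 FPKM in control libraries. Single markers differed in direction. Cd8a averaged 352 FPKM with acetate and 308 FPKM in controls, and Cd8b1 301 and 321 FPKM. Of 26 markers of other cell types, 22 were in the table, 2 of these were at 0 in every library, and their summed level was 29.1 to 30.8 FPKM in acetate libraries and 28.6 to 29.3 FPKM in control libraries. Most of that sum was Cd79b and Cd68, while the defining B cell gene Ms4a1 averaged 0.00901 FPKM in acetate libraries and 0.0246 FPKM in control libraries. In bulk RNA, fewer cells of a type and less RNA per cell cannot be told apart.

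Levels among the carriers differed over a wide range. Slc25a5, the ADP/ATP exchanger of growing cells, was the most abundant at 321 ± 4.90 FPKM in acetate libraries and 264 ± 7.33 FPKM in control libraries (SD, n = 3 each), and alone made up 31.3% ± 0.652 and 28.8% ± 0.218 of the family's summed FPKM. The phosphate carrier Slc25a3 and the second ADP/ATP exchanger Slc25a4 came next. Slc25a4 averaged 133 ± 6.94 FPKM in acetate libraries, where its values overlapped those of Slc25a3 at 128 ± 2.86 FPKM. In control libraries Slc25a4 averaged 119 ± 4.66 FPKM and lay below Slc25a3, at 129 ± 1.67 FPKM, in every library. These 3 genes held 56.8% ± 0.217 of the family sum with acetate and 55.8% ± 0.397 in controls. The whole family summed to 1014, 1031 and 1027 FPKM in acetate libraries, against 921, 936 and 899 FPKM in control libraries. The acetate sums were all above the control sums, 1.11-fold by the means, and 1.08-fold without Slc25a5. These folds are not corrected for the summed FPKM of all genes, which was also higher with acetate. It was 365765, 380665 and 384438 in acetate libraries, against 357168, 363385 and 352027 in control libraries. As a share of all summed FPKM the family took 0.272% ± 0.00511 with acetate and 0.257% ± 0.00143 in controls, 1.06-fold by the means. No such share was taken without Slc25a5.

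**Figure D1:**
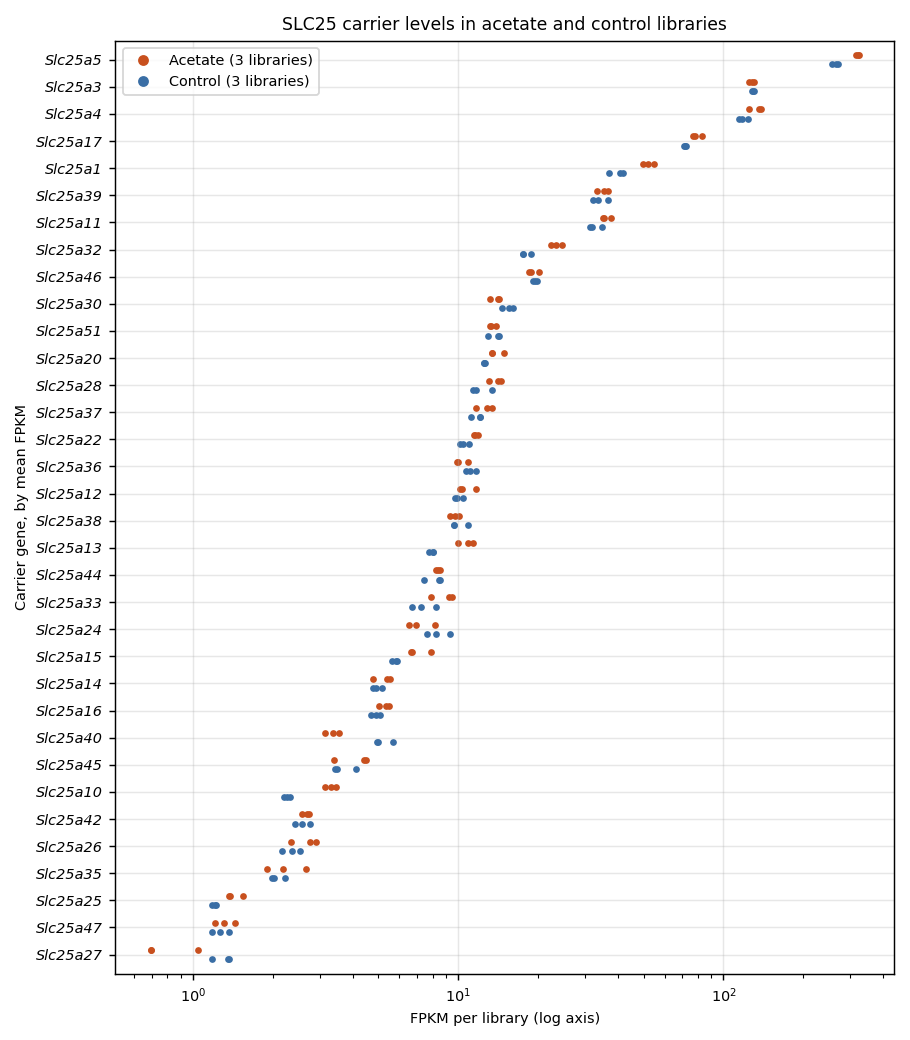
Level of the tested carriers (all but 1 of 35) in FPKM on a log axis, with 1 point per library and acetate above control within each gene. Slc25a5 heads the family in both groups, and Slc25a27, Slc25a47 and Slc25a25 lie near 1 FPKM.

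With acetate, 9 of the 35 tested carriers were higher and 3 lower, and 23 did not pass the threshold (limma on log2(FPKM + 1), Benjamini-Hochberg adjustment over 10867 genes, threshold 0.05). Of all genes tested, 38.9% were called. The 9 are 25.7% of the tested carriers, beside 22.0% of all genes tested called higher, and the 3 are 8.57%, beside 16.9% called lower. The share of rises was thus near the background. Acetate values lay all above control values for 12 tested carriers, 34.3% against 28.8% of all genes, and all below for 3, 8.57% against 23.1%. The median log2 change of the tested carriers was 0.09, against 0.02 over all genes tested. After rescaling to TPM, where the values of each library are brought to one common sum, 5 carriers were higher and 4 lower, beside 12.9% and 22.6% of all genes, and rises made up 36.4% of the calls over all genes, against 56.6% as deposited. Of the 12 called carriers, 6 kept their call under each alternative that could be run for them, namely the rises of Slc25a1, Slc25a10, Slc25a13, Slc25a5 and Slc25a32 and the fall of Slc25a40. Slc25a27 entered the test through its control values, since its acetate mean was below 1 FPKM.

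**Figure D2:**
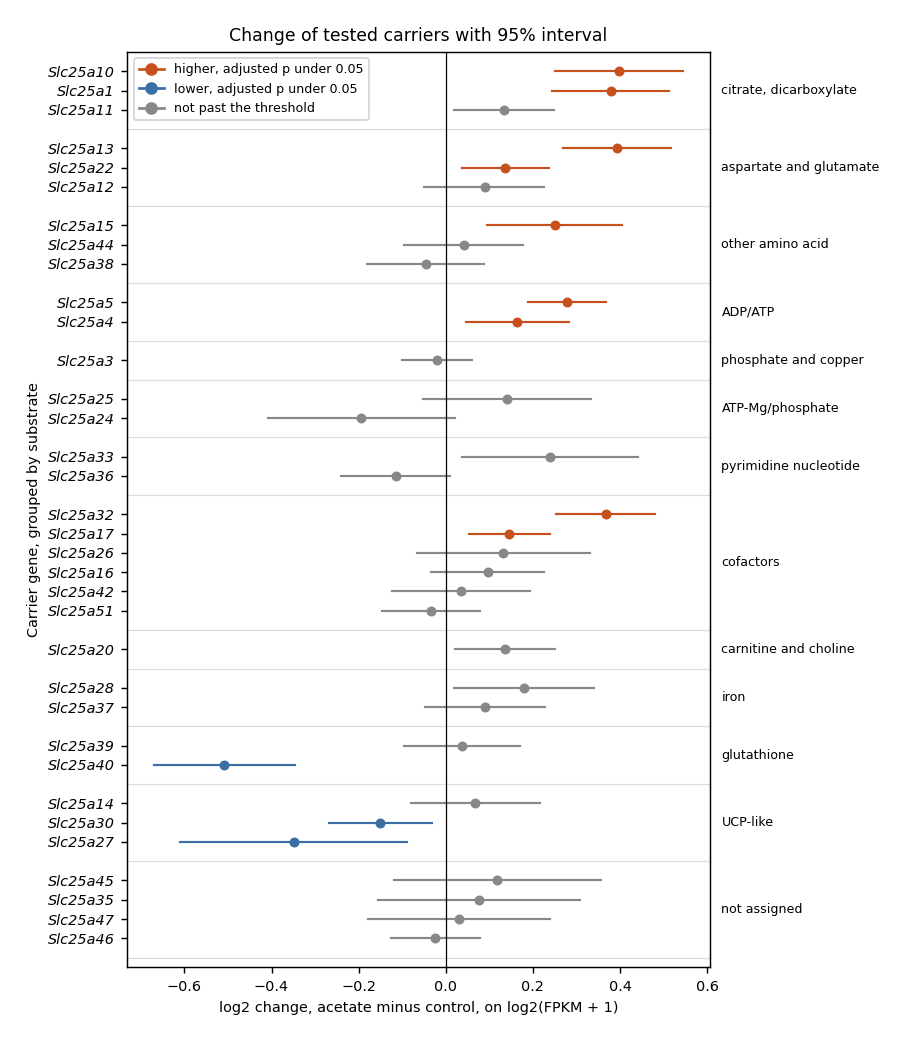
Log2 change with acetate of the tested carriers (all but 1 of 35), grouped by substrate, with its 95% interval from limma (n = 3 per group). The citrate, dicarboxylate and aspartate carriers Slc25a10, Slc25a13 and Slc25a1 lie furthest to the right, at 0.40, 0.39 and 0.38, and Slc25a40 furthest to the left on this log2(FPKM + 1) scale, at -0.51.

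The groups by substrate each hold few tested members, and their counts stand beside 22.0% of all genes tested called higher and 16.9% lower. Among carriers of citrate, dicarboxylates and oxoacids, 2 of 3 tested members rose. Slc25a1, the citrate carrier that delivers citrate to the cytosol, had 49.7, 52.0 and 54.7 FPKM in acetate libraries, against 40.9, 42.0 and 36.9 FPKM in control libraries. All acetate values lay above all control values, and the log2 change was 0.38 with a standard error of 0.06 (limma adjusted p = 0.00238). Slc25a10, which exchanges malate or succinate for phosphate, had 3.14, 3.30 and 3.45 FPKM with acetate, against 2.32, 2.25 and 2.21 FPKM in controls. It had the largest fold among the carriers that rose, 1.46 by the means, and its groups did not overlap (log2 change 0.40, limma adjusted p = 0.00275). Its span in the table holds an antisense gene, Gm11788, at a mean of 0.611 FPKM, and reads of these genes cannot be told apart where counting ignores strand. Slc25a11, the oxoglutarate/malate carrier of the malate-aspartate shuttle, averaged 35.98 ± 1.36 FPKM with acetate and 32.7 ± 1.77 FPKM in controls, without overlap. It did not pass (adjusted p = 0.0675), and did pass without control replicate 1 (adjusted p = 0.0324). Its span overlaps Rnf167, a gene on the other strand at a mean of 12.2 FPKM. The oxodicarboxylate carrier Slc25a21 was at 0 in all libraries.

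The malate-aspartate shuttle moves reducing equivalents into mitochondria and needs an aspartate/glutamate carrier beside Slc25a11. Slc25a13, or citrin, had 10.0, 10.9 and 11.4 FPKM in acetate libraries, against 8.05, 8.01 and 7.78 FPKM in control libraries. The groups did not overlap, and the log2 change was 0.39 with a 95% interval of 0.27 to 0.52 (limma adjusted p = 0.00143). Its close relative Slc25a12, or aralar, averaged 10.7 ± 0.824 FPKM with acetate and 10.0 ± 0.357 FPKM in controls and did not pass (adjusted p = 0.273, 95% interval of the log2 change -0.05 to 0.23). In control libraries every Slc25a12 value lay above every Slc25a13 value, and in acetate libraries the values of the 2 genes overlapped. Slc25a22, which imports glutamate with a proton, had 11.85, 11.46 and 11.61 FPKM with acetate, against 10.95, 10.38 and 10.18 FPKM in controls. The groups did not overlap, and it rose by 0.14 on the log2 scale (limma adjusted p = 0.0390). That call was lost without any 1 of the acetate libraries or control replicate 2 or 3 (adjusted p = 0.0765 to 0.125), and the change was 0.07 after rescaling to TPM (adjusted p = 0.342). Slc25a18, the other glutamate carrier, held 4 to 22 reads in a library and was not tested.

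Of carriers of other amino acids, 1 of 3 tested rose. Slc25a15, which exchanges ornithine for citrulline in the urea cycle and is used elsewhere in arginine and proline metabolism, had 7.87, 6.66 and 6.71 FPKM with acetate, against 5.89, 5.82 and 5.63 FPKM in controls. Acetate replicate 1 was the highest value, and the groups did not overlap. Its log2 change was 0.25 (limma adjusted p = 0.0217), and the call was lost without control replicate 2 or 3 (adjusted p = 0.0529 and 0.0674) and after rescaling to TPM (adjusted p = 0.104). Slc25a38, a glycine carrier that supplies heme synthesis, averaged 9.72 ± 0.362 FPKM with acetate and 10.1 ± 0.724 FPKM in controls. Slc25a44, which imports branched-chain amino acids, averaged 8.39 ± 0.154 FPKM with acetate and 8.15 ± 0.638 FPKM in controls. Neither passed, with 95% intervals of the log2 change of -0.18 to 0.09 and -0.10 to 0.18. Slc25a29, a carrier of basic amino acids, and the ornithine carrier Slc25a2 stayed below the filter, at group means of 0.686 and 0.251 FPKM with acetate and 0.584 and 0.379 FPKM in controls.

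Both tested ADP/ATP exchangers rose. Slc25a5 had 324, 323 and 315 FPKM in acetate libraries, against 265, 272 and 257 FPKM in control libraries. The lowest acetate library exceeded the highest control library, with a log2 change of 0.28 and a standard error of 0.04 (limma adjusted p = 0.00158). With cyclic loess normalization the change was 0.17 (adjusted p = 0.0157). Slc25a4 had 125, 136 and 138 FPKM with acetate, against 117, 124 and 115 FPKM in controls, a narrower gap and a log2 change of 0.16 (limma adjusted p = 0.0359). That call was lost without acetate replicate 2 or 3 or control replicate 1 or 3 (adjusted p = 0.0966 to 0.114) and with quantile normalization, at 0.06 (adjusted p = 0.197). The 2 genes are similar in sequence, and how the authors shared reads between similar copies is not given in the sources used here. Slc25a31, the germ cell ADP/ATP exchanger, held at most 2 reads in a library.

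Slc25a3 supplies the phosphate that ATP synthase joins to ADP, and also carries copper. It had 128, 125 and 130 FPKM in acetate libraries and 130, 131 and 128 FPKM in control libraries, which overlapped. It was not called as deposited (limma adjusted p = 0.684, log2 change -0.02, 95% interval -0.10 to 0.06). With quantile or cyclic loess normalization it was called lower (adjusted p = 0.0267 and 0.0311). The ATP-Mg/phosphate carriers adjust the adenine nucleotide pool of the matrix, and neither tested member passed. Slc25a24 averaged 7.20 ± 0.859 FPKM with acetate and 8.38 ± 0.851 FPKM in controls (adjusted p = 0.133), and was called lower without acetate replicate 1 (adjusted p = 0.0396) and by voom, limma's test on the recovered reads (adjusted p = 0.0305). Slc25a25 had 1.37, 1.37 and 1.54 FPKM with acetate, against 1.18, 1.22 and 1.21 FPKM in controls, without overlap but without passing (adjusted p = 0.218), and it overlaps Naif1 on the other strand, at 1.61 FPKM. Slc25a23 and Slc25a41 were near 0, with at most 9 and 6 reads in a library.

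The pyrimidine nucleotide carriers Slc25a33 and Slc25a36 supply mitochondrial DNA and RNA synthesis. Slc25a33 averaged 8.88 ± 0.851 FPKM with acetate and 7.37 ± 0.779 FPKM in controls (adjusted p = 0.0632), and passed as higher without acetate replicate 1 or control replicate 2 (adjusted p = 0.0268 and 0.0322). Slc25a36 averaged 10.2 ± 0.554 FPKM with acetate and 11.2 ± 0.508 FPKM in controls (adjusted p = 0.126), and was called lower by voom (adjusted p = 0.0173). An antisense gene in its span, Gm16185, averaged 2.47 FPKM.

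Among 7 cofactor carriers, all tested, 2 rose. Slc25a32, the folate carrier that also carries FAD, had 24.5, 22.4 and 23.4 FPKM in acetate libraries, against 17.5, 17.5 and 18.8 FPKM in control libraries. The groups stood apart, with a log2 change of 0.37 and a 95% interval of 0.25 to 0.48 (limma adjusted p = 0.00140). Slc25a17, which is peroxisomal and carries coenzyme A and related nucleotides, had 76.8, 83.2 and 78.3 FPKM with acetate, against 71.3, 72.0 and 71.8 FPKM in controls. Its log2 change was 0.15 (limma adjusted p = 0.0233), and the call was lost without acetate replicate 2 or any 1 control library (adjusted p = 0.0562 to 0.0820) and with quantile normalization, at 0.05 (adjusted p = 0.309). The carriers tied to coenzyme A in mitochondria, Slc25a16 and Slc25a42, averaged 5.28 ± 0.248 and 2.67 ± 0.0855 FPKM with acetate and 4.87 ± 0.198 and 2.58 ± 0.172 FPKM in controls. The NAD carrier Slc25a51 averaged 13.4 ± 0.367 FPKM with acetate and 13.8 ± 0.710 FPKM in controls, with a 95% interval of the log2 change of -0.15 to 0.08. The S-adenosylmethionine carrier Slc25a26 averaged 2.68 ± 0.292 FPKM with acetate and 2.35 ± 0.185 FPKM in controls, with Lrig1 (11.8 FPKM) overlapping it on the other strand. None of these 4 passed.

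Slc25a20 brings acylcarnitines into the matrix for fatty acid oxidation. It had 13.4, 14.9 and 13.5 FPKM with acetate, against 12.5, 12.6 and 12.5 FPKM in controls, without overlap, and did not pass (adjusted p = 0.0625, log2 change 0.14). The choline carrier Slc25a48 was at 0 in all libraries. The mitoferrins Slc25a28 and Slc25a37 import iron. Slc25a28 averaged 13.9 ± 0.760 FPKM with acetate and 12.2 ± 1.13 FPKM in controls (adjusted p = 0.0777), with control replicate 1 the one control value inside the acetate range, and it passed as higher without that library (adjusted p = 0.0217). Slc25a37 averaged 12.6 ± 0.886 FPKM with acetate and 11.8 ± 0.521 FPKM in controls (adjusted p = 0.264).

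Slc25a39 and Slc25a40 are related carriers through which mitochondria take up glutathione, the main thiol antioxidant. Slc25a40 had 3.55, 3.36 and 3.15 FPKM in acetate libraries, against 4.92, 4.99 and 5.68 FPKM in control libraries. Every acetate value lay below every control value, 0.645-fold by the means, and it fell by 0.51 on the log2 scale (standard error 0.07, limma adjusted p = 0.00148). Slc25a39, the more abundant of the pair, had 33.4, 36.7 and 35.3 FPKM with acetate and 33.8, 36.7 and 32.2 FPKM in controls. Its groups overlapped (limma adjusted p = 0.636, 95% interval of the log2 change -0.10 to 0.17). The 2 genes together summed to 38.5 ± 1.57 FPKM with acetate and 39.4 ± 2.00 FPKM in controls.

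Of carriers named for their likeness to uncoupling proteins, 3 were tested and 2 were called lower, of which Slc25a27 was tested only because of its control values, so that count is partly set by the filter. Slc25a27 (UCP4) had 0.693, 0.697 and 1.04 FPKM with acetate, against 1.18, 1.36 and 1.36 FPKM in controls, from 65 to 133 reads. Its log2 change was -0.35 (limma adjusted p = 0.0421), and -0.77 by voom (adjusted p = 0.00646). The call was lost without acetate replicate 1 or 2 or any 1 control library (adjusted p = 0.0659 to 0.117), and with a pseudocount of 0.1, quantile normalization or cyclic loess. Slc25a30 had 14.1, 14.3 and 13.1 FPKM with acetate, against 15.6, 16.1 and 14.7 FPKM in controls, close but without overlap, with a log2 change of -0.15 (limma adjusted p = 0.0492). It was lost without any 1 acetate library or control replicate 1 or 2 (adjusted p = 0.0690 to 0.142). Slc25a14 (UCP5) averaged 5.24 ± 0.395 FPKM with acetate and 4.94 ± 0.196 FPKM in controls and did not pass. Among members with no substrate assigned here, Slc25a46, an outer membrane protein linked to mitochondrial shape, averaged 19.2 ± 0.948 FPKM with acetate and 19.5 ± 0.272 FPKM in controls. Slc25a45, Slc25a35 and Slc25a47 lay between 1.18 and 4.47 FPKM, and none of these 4 passed. Slc25a53 and Slc25a43 were below the filter at up to 0.891 and 0.600 FPKM, Slc25a34 held at most 1 read, and Slc25a54 was at 0.

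The 6 carriers whose calls held lie on different chromosomes. In the coordinates of the table, which follow the C57BL/6NJ annotation and not mm10, the gene spans are 16:15357587-15360595 for Slc25a1, 11:128738486-128745834 for Slc25a10, 6:2981801-3173243 for Slc25a13, X:32342418-32347027 for Slc25a5, 15:38952981-38975334 for Slc25a32 and 5:5901566-5935833 for Slc25a40. Values are for the whole gene, with no split by exon.

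**Figure D3:**
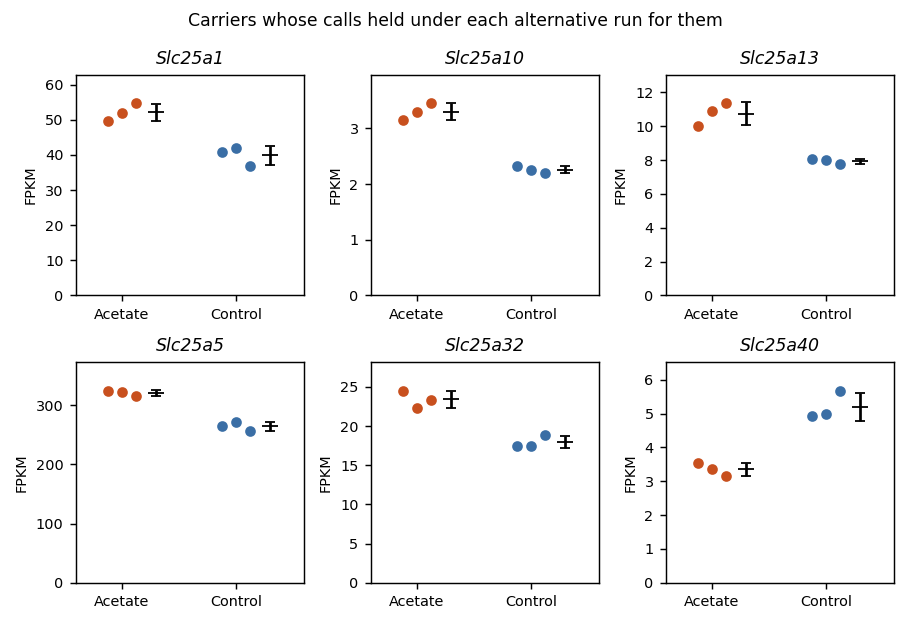
FPKM of the 6 carriers whose calls held under each alternative run for them, with 1 point per library and the mean with SD beside it, on axes that start at 0. Acetate points lie above control points in 5 panels and below them for Slc25a40.

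The window before the transcription start is shown for 3 carriers that rose and were picked because they share a motif. It is also shown for Slc25a40, the carrier whose fall held under each alternative run for it. The windows are the 250 bases upstream of the RefSeq start (GRCm38.p6), searched on both strands for CACGTG, the E-box bound by MYC with MAX, and for CCAAT, bound by NF-Y, with matches in capitals. They are chr16:17928220-17928469 (minus strand) for Slc25a1, chr6:6217174-6217423 (minus) for Slc25a13, chr8:22398278-22398527 (minus) for 1 of 2 starts of Slc25a15, the downstream one, and chr5:8422588-8422837 (plus) for Slc25a40.
Slc25a1: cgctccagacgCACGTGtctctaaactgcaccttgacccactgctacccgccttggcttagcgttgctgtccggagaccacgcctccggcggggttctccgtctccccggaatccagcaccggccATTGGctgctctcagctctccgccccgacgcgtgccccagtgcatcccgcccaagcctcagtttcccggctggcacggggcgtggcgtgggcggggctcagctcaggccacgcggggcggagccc
Slc25a13: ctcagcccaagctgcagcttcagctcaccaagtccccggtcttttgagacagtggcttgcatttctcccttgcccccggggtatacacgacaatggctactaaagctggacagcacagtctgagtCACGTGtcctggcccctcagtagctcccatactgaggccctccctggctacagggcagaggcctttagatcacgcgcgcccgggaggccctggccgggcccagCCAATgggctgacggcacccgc
Slc25a15: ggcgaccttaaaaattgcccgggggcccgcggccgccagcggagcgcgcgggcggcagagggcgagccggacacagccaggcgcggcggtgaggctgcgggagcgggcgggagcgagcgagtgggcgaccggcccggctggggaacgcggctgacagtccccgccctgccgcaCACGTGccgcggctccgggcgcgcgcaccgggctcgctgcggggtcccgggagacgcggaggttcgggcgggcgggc
Slc25a40: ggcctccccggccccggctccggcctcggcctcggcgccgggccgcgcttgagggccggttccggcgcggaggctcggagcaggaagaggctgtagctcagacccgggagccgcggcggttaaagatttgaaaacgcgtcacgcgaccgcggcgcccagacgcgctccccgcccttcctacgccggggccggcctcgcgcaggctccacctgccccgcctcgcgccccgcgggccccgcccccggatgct
The E-box lay 234 to 239 bases before the start in Slc25a1, 120 to 125 in Slc25a13 and 72 to 77 in Slc25a15. An ATTGG, which is CCAAT on the other strand, was found in the Slc25a1 window and a CCAAT in that of Slc25a13. The Slc25a40 window held neither motif, and neither did the windows of Slc25a5 and Slc25a10, whose rises held. The window of the other Slc25a15 start held no CACGTG. RefSeq windows were at hand for 36 of the 47 carriers, and a gene with several starts was counted once if any of its windows held the motif, for carriers and background alike. CACGTG was found for 7 of the 36 carriers, for 3 of 8 that rose and 0 of 2 that fell, beside 6.86% of all 27025 genes with windows and 10.3% of the 7474 of these that passed the filter. The remaining 4 carriers with CACGTG were Slc25a14, Slc25a31, Slc25a33 and Slc25a36, none of them called. CCAAT was found for 18 carriers, for 5 of 8 that rose and 1 of 2 that fell, beside 37.5% of all genes and 40.8% of those past the filter. The GC box GGGCGG was found for 25 carriers, beside 35.4% and 65.7%. The NRF1 site was found for 2 carriers, beside 4.23% and 10.7%, and the sterol element TCACNCCAC for 1, beside 1.22% and 1.28%. TGATGNAAN, an element of ATF4 with C/EBP, was found for 0 of 36 carriers, beside 3.89% and 2.21%. The 36 include carriers below the filter, so the shares past the filter compare better with the 26 tested carriers that had windows. Of these 26, CACGTG was found for 6, CCAAT for 13, the GC box for 19 and the NRF1 site for 1. The sterol and ATF4 elements were found for 0 of them. Among called carriers, Slc25a32 and Slc25a27 had no window. A match is a run of letters and no measured binding.

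Within a library, the ratio of 2 related carriers does not depend on how that library was scaled. Of 7 pairs compared, 5 had ratios that did not overlap between the groups. That is the limit of an exact two-sided permutation test of 3 against 3 libraries (p = 0.1, the smallest possible). Adjusted over the 7 pairs it is 0.14, so none could pass. Groups were often apart for single genes too, with acetate all above for 28.8% of genes tested and all below for 23.1%. No such share was taken for ratios of other gene pairs, so the 5 of 7 has no background. The ratio of Slc25a39 to Slc25a40 was 9.41, 10.9 and 11.2 in acetate libraries, against 6.86, 7.35 and 5.68 in control libraries. The ratio of Slc25a12 to Slc25a13 was 1.03, 0.932 and 1.03 with acetate, against 1.29, 1.24 and 1.25 in controls. For Slc25a33 to Slc25a36 it was 0.872 ± 0.125 with acetate and 0.660 ± 0.0521 in controls, and for Slc25a24 to Slc25a25 it was 5.08 ± 0.855 and 6.97 ± 0.613. Slc25a5 to Slc25a4 moved least of the 5, at 2.42 ± 0.160 with acetate and 2.23 ± 0.0327 in controls. The mitoferrin pair and the pair of Slc25a16 and Slc25a42 overlapped (exact permutation p = 0.5 each).

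**Figure D4:**
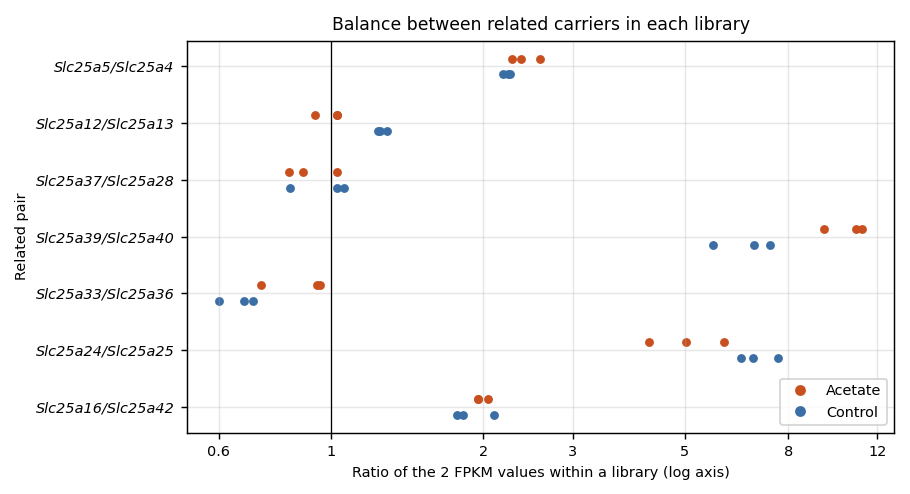
Ratio of FPKM of 7 related pairs within each library on a log axis, with acetate above control. Points of the groups are apart for 5 pairs, most widely for Slc25a39/Slc25a40, and overlap for Slc25a37/Slc25a28 and Slc25a16/Slc25a42.

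Genes that build, accompany or feed the carriers were read from 7 lists, of which 71 genes were tested, 29 higher and 10 lower with acetate, with a median log2 change of 0.12. These are 40.8% and 14.1% of the genes tested in the lists, beside 22.0% and 16.9% of all genes. The lists were chosen with earlier results of these data known, so this contrast is no independent evidence. Rises are also more common among more abundant genes. With the filter at a mean of 5 FPKM, 29 of 62 listed genes rose and 10 fell, beside 2258 and 1376 of 7665 genes. Of the 29 rises 15, and of the 10 falls 7, held under each alternative run for them. Carriers reach the inner membrane through the TOM pore and the small TIM chaperones, and 7 of 10 tested genes of that path rose and 0 fell (median 0.25). Tomm70a, the receptor that binds carrier precursors, averaged 110 ± 3.01 FPKM with acetate and 91.1 ± 1.67 FPKM in controls (limma adjusted p = 0.00155). Tomm22 and the intermembrane chaperone subunit Timm8b averaged 94.8 ± 3.72 and 87.8 ± 4.27 FPKM with acetate and 74.2 ± 2.25 and 66.3 ± 2.14 FPKM in controls (adjusted p = 0.000976 and 0.000780). Of other mitochondrial carriers and channels, a list of inner membrane proteins that also holds the outer membrane proteins Mtch1 and Mtch2, 11 of 20 rose and 0 fell. They included the carrier relatives Ucp2, at 94.99 ± 3.04 FPKM with acetate and 70.1 ± 3.73 FPKM in controls, and Mtch2, at 20.5 ± 1.08 FPKM with acetate and 16.6 ± 0.439 FPKM in controls (adjusted p = 0.000655 and 0.00314). The serine carrier Sfxn1 averaged 83.3 ± 2.99 FPKM with acetate and 70.7 ± 1.63 FPKM in controls (adjusted p = 0.00362), a call lost with quantile normalization and cyclic loess (adjusted p = 0.0701 and 0.0604). The porins Vdac1 and Vdac2 rose by 0.14 and 0.15 (adjusted p = 0.0306 and 0.0240), and both calls were lost without acetate replicate 2 or 3 or control replicate 1 or 3 (adjusted p = 0.0610 to 0.104).

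Enzymes on either side of the carriers were called in both directions, in lists of 9 or 10 tested genes. In the order below, 22.2%, 10%, 30% and 30% were called higher, beside 22.0% of all genes tested. Called lower were 33.3%, 40%, 0% and 30%, beside 16.9% of all genes tested. Several of these shares are near the background. Of 9 genes of the malate-aspartate shuttle and citrate handling 2 rose and 3 fell (median 0.02). The falls of Mdh1 and Ogdh were lost under 7 and 6 of 14 alternatives, that of Mdh1 without any 1 library. Got1, the cytosolic aspartate aminotransferase, averaged 37.5 ± 0.599 FPKM with acetate and 50.4 ± 1.34 FPKM in controls (limma adjusted p = 0.000268). Its mitochondrial counterpart Got2 averaged 115 ± 1.93 FPKM with acetate and 98.5 ± 0.476 FPKM in controls (adjusted p = 0.00177), and Acly, which splits exported citrate, rose by 0.28 on the log2 scale. Of 10 mitochondrial nucleotide and folate users 1 rose and 4 fell (median -0.12). Mthfd2, a folate enzyme of the matrix, averaged 92.6 ± 2.24 FPKM with acetate and 126 ± 2.64 FPKM in controls (adjusted p = 0.000238), while the folate carrier Slc25a32 was higher. The nucleoside kinases Tk2 and Dguok fell by 0.40 and 0.41 on the log2 scale (adjusted p = 0.00252 and 0.00280). Of 10 heme and iron-sulfur genes 3 rose and 0 fell (median 0.16), with Nfs1, Glrx5 and Alas1 at 18.8 ± 0.220, 92.0 ± 5.18 and 10.6 ± 0.881 FPKM with acetate and 16.3 ± 0.400, 74.5 ± 4.92 and 8.38 ± 0.512 FPKM in controls. The call of Nfs1 was lost after rescaling to TPM (adjusted p = 0.0539). Of 10 coenzyme A and carnitine genes 3 rose and 3 fell (median 0.06). The carnitine acyltransferase Cpt1a was higher by 0.36, and the coenzyme A enzymes Ppcdc and Pank2 were lower, at -0.49 and -0.20 on the log2 scale. In this list the rises of Pank4 and Ppcs and the fall of Coasy were lost under 11, 8 and 7 of 14 alternatives.

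**Figure D5:**
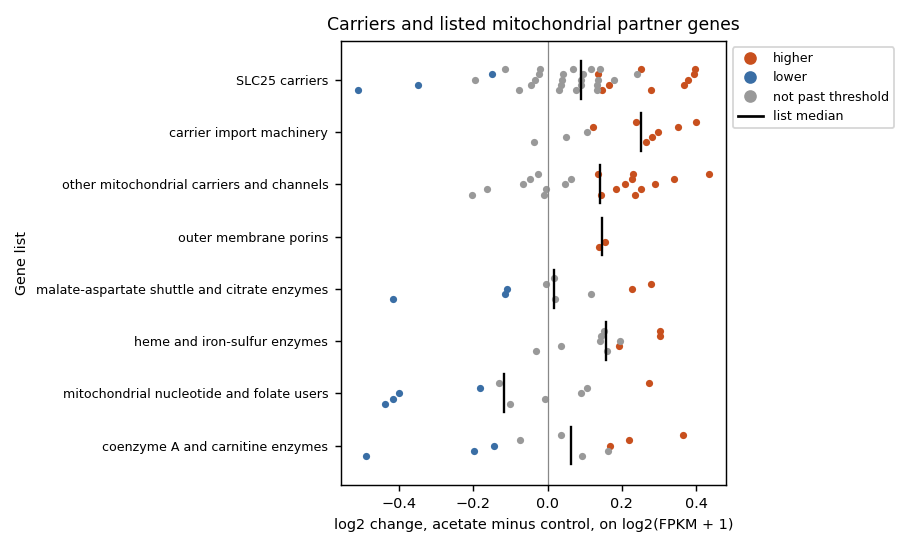
Log2 change with acetate of the 35 tested carriers and of the genes of 7 partner lists, with 1 point per gene and a black bar at each list's median. The import list has the median furthest to the right, at 0.25, and the nucleotide and folate list lies to the left, at -0.12.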

How the data were processed

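RNA from 6 libraries of stimulated mouse CD8+ T cells was analysed from 1 deposited table of FPKM values for 41095 genes. The submitters' processing notes name cutadapt 1.18, HISAT2 2.1.0 and mm10. The counting tool, and how it treated strand and shared reads, is not given in the sources used here. Gene identifiers are of the C57BL/6NJ annotation. All 47 carriers lay on the same chromosome in GRCm38 but 0 overlapped their GRCm38 position, so positions are given as in the table. FPKM multiplied by gene length gave whole reads for 100% of values in each library (tolerance 0.01 reads), which yielded the depths. Even numbers made up 64.2% to 65.7% of values up to 40 reads, against 49.6% to 50.8% above 200, so these reads may not all be independent fragments. A single line of the table held no values.

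The 10867 genes averaging 1 FPKM or more were compared as log2(FPKM + 1) with limma 3.58.1 in R 4.3.3 (empirical Bayes with a trend, group as the only term, two-sided, Benjamini-Hochberg over all genes tested). Log2 changes are on that scale, which understates changes of low genes, and folds are ratios of mean FPKM. The procedure was tested on simulated reads. Same-numbered libraries did not deviate together (correlation of deviations -0.054, 0.026 and -0.039). Whether the numbers pair animals or cultures is not given, and these values cannot decide it. Members and lists were chosen with earlier results of these data known. All members are counted, and 1 carrier that was tested and not called is not reported here. Members past the threshold are given with values per library, and of each partner list up to 3 of lowest p. Listed symbols without a row in the table were not analysed here. Alternatives covered pseudocount, filter, scaling, a replicate block and leaving out each library. Voom (limma) on the recovered reads was added after seeing the data. Promoters are those of RefSeq, GRCm38.p6.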

Additional observations from a re-analysis of the deposited data

How the results depend on the processing

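The rises of Slc25a1, Slc25a10, Slc25a13, Slc25a5 and Slc25a32 and the fall of Slc25a40 held under each alternative that could be run for them, which were 14, or 13 for the low genes Slc25a10 and Slc25a40. The other 4 rises and 2 falls were each lost under some alternative, and 7 of 23 uncalled carriers gained a call under some. Against 9 rises, 5 were called after rescaling to TPM and 5 to 9 when 1 library was left out, fewest without control replicate 3. Against 3 falls, 1 was called with no filter and 1 with the filter at 5 FPKM, where fewer low genes were tested, 5 by voom, and 1 to 2 when 1 library was left out, with 1 left without acetate replicate 2, control replicate 1 or control replicate 2. Of partner genes, 29 rises became 16 after rescaling to TPM and 18 to 26 when 1 library was left out, fewest without control replicate 3 (18) and acetate replicate 2 (19). For the other counts that moved the cause was not tested. Counts over all genes tested moved too. Their 2393 rises became 1403 after rescaling to TPM and 1710 to 2290 when 1 library was left out. Fewest remained without acetate replicate 2 (1710) and control replicate 3 (1772). The 1836 falls over all genes became 1553 with no filter, 1376 with the filter at 5 FPKM and 2527 by voom. When 1 library was left out they were 1359 to 1697. No call changed direction. With the replicate number as a block 7 carriers rose and 2 fell, and 24 and 7 partner genes, while over all genes 2052 rose and 1548 fell. The block took the calls of Slc25a4, Slc25a22 and Slc25a27. The edgeR and DESeq2 alternatives were not run, and voom was the only test applied to the recovered reads.

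Over all genes the median change moved from 0.021 as deposited to -0.046 after rescaling to TPM, a shift smaller than the changes of the carriers that held. With 3 libraries a group the permutation test of a ratio cannot go below 0.1. Differences in the carriers held by a few reads were not detectable at this depth.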

Other observations

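Members of the family were spread over 19 chromosomes, and 4 pairs lay next to each other with 0 protein-coding rows between them. Slc25a5 on the X chromosome lies 18.2 kb from Slc25a43, which averaged 0.465 FPKM with acetate and 0.420 FPKM in controls, beside 321 and 264 FPKM for Slc25a5. Slc25a24 lies 7.8 kb from Slc25a54, which had 0 reads in every library. Slc25a47 and Slc25a29 are 17.6 kb apart on chromosome 12 and were both low, at 1.32 and 0.686 FPKM with acetate and 1.27 and 0.584 FPKM in controls. Slc25a41 and Slc25a23, 3.0 kb apart on chromosome 17, were both near 0. Run with no filter, the carriers below 1 FPKM that had reads did not pass (limma adjusted p = 0.353 to 0.994). That run kept the 1 added to each FPKM, which shrinks changes at such levels, so it cannot show that these genes were unchanged.

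The uncoupling protein genes Ucp2 and Ucp3 belong to the same protein family under other names. Ucp3, chosen after its values were seen, averaged 11.1 ± 0.615 FPKM with acetate and 8.56 ± 0.545 FPKM in controls (limma adjusted p = 0.00397). Mtch1, a relative in the outer membrane also chosen after its values were seen, averaged 23.6 ± 0.940 FPKM with acetate and 20.04 ± 0.389 FPKM in controls (adjusted p = 0.00489).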
